A study of Mus musculus with 6 samples.

Results

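The interferon-gamma-induced GTPases were followed in D2A1 spheroids as 10 genes fixed by name, Gbp2, Gbp3, Gbp6, Gbp7, Irgm1, Irgm2, Igtp, Iigp1, Ifi47 and Tgtp1, out of 54146 genes in the deposited expression table. All 10 names were found in the table. D2A1 is a mouse mammary tumor cell line, and its cells were grown as spheroids in Matrigel with serum. RNAseq was performed on 3 libraries treated with recombinant SLURP1 (rSLURP1, 50 nM) and 3 libraries treated with recombinant GST (rGST, 50 nM), the control protein, harvested on day 5. SLURP1 is a secreted Ly6/uPAR-related protein, and the comparison asked which genes differed between the treatments in vitro. All libraries come from the same parental line, and neither the labels nor the methods say whether they are separate cultures, so p-values measure the spread between these libraries, which may be technical. Sample labels list TruSeq mRNA as the library kit but the methods list Smart-seq2, which is not settled here.

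Guanylate-binding proteins (GBPs) and immunity-related GTPases (IRGs) are large families of GTP-binding proteins that cells make in response to interferons, above all interferon-gamma. They assemble on the vacuoles that shelter intracellular parasites and bacteria and help to break these membranes open. Within the IRG family, Irgm1, Irgm2 and Igtp (also called Irgm3) are regulators that sit on the membranes of the cell itself and keep the effector IRGs inactive there, and Iigp1 (Irga6), Tgtp1 (Irgb6) and Ifi47 (Irgd) belong to the effector group. Transcription of these genes is driven through short promoter elements named GAS and ISRE, and IRF1 is among the factors that bind ISRE elements.

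The genes lie in clusters on GRCm38 (GENCODE M21). Gbp7 (chr3:142530342-142550149), Gbp3 (chr3:142560026-142573209) and Gbp2 (chr3:142620602-142638008) lie on the plus strand of chromosome 3. Gbp6 (chr5:105270702-105293698) lies on the minus strand of chromosome 5. Irgm1 (chr11:48861968-48871683) and Tgtp1 (chr11:48985327-48994172) are on the minus strand of chromosome 11, where Ifi47 (chr11:49076587-49096974), Igtp (chr11:58199556-58207591) and Irgm2 (chr11:58199618-58222782) are on the plus strand. In this annotation Igtp and Irgm2 overlap over 7974 bases on the same strand. The RefSeq start of Irgm2 used for its promoter below lies past the end of Igtp. Counted from that start, the 2 genes do not overlap.

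The promoters of 6 of these genes are shown because each holds an ISRE-type run shortly before its start site, in Gbp7, Irgm2 and Igtp together with a GAS-type run. Tgtp1, which was near 0, also holds both and is not printed, and Ifi47 holds neither. RefSeq (GRCm38.p6) windows, which run from 250 bases before each start to 50 bases after it, were found for 8 of the 10 genes, all but Gbp6 and Iigp1. Each line gives the 120 bases before the start, 5′ to 3′ on the strand of the gene, with matches to GAAA, any 2 bases and GAAA again (an ISRE-type run, searched on both strands) and TTCNNNGAA (a GAS-type run, the same on both strands) in capitals. They are Gbp2 (chr3:142620543-142620662, plus strand), Gbp3 (chr3:142559924-142560043, plus), Gbp7 (chr3:142530216-142530335, plus), Irgm1 (chr11:48871421-48871540, minus), Irgm2 (chr11:58214857-58214976, plus) and Igtp (chr11:58199436-58199555, plus).
Gbp2: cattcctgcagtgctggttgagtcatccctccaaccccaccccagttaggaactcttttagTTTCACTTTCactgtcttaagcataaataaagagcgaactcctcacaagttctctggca
Gbp3: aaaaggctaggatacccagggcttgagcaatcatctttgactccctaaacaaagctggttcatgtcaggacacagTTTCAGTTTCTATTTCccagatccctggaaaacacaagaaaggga
Gbp7: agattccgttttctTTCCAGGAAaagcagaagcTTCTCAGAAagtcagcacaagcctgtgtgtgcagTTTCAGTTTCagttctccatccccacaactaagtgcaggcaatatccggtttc
Irgm1: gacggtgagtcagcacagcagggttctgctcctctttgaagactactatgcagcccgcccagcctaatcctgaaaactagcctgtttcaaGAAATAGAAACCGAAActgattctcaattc
Irgm2: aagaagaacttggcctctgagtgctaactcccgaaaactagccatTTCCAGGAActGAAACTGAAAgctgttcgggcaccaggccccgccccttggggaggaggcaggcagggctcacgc
Igtp: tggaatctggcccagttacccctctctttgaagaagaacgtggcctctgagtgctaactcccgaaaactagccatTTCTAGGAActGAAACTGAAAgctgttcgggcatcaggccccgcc

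A gene counts here if any of its windows holds a run of the kind named. An ISRE-type run was present in 7 of the 8 genes with a window (87.5%). It was present in 3.99% of the 27025 genes with a full window outside chromosome 18. A GAS-type run was present in 4 of the 8 (50.0%), against 9.55% of these genes, and both kinds in 4 of the 8, against 0.614%. Related genes held such runs as well. Of 8 genes with a window among the other GTPase genes described below, 6 held an ISRE-type run (75.0%) and 4 held both kinds (50.0%). Among 22 antiviral genes 13 held an ISRE-type run (59.1%) and 3 both kinds, and among 16 MHC class I genes 5 (31.2%) and 0. In the 7 listed genes the ISRE-type runs lay between 77 and 15 bases before the start. In Gbp3 and in Irgm1 a pair of ISRE-type runs overlapped each other. Gbp3 has 2 windows, and only the printed window holds runs. In Igtp, Irgm2 and Tgtp1 the GAS-type run ended 2 bases before the ISRE-type run began, and in Gbp7 a pair of GAS-type runs lay 44 and 25 bases before it. Igtp and Irgm2 shared an identical stretch of 38 bases in the printed windows. Ifi47 had a match of neither kind in its window, which says only that these letters are not within it. A match describes the letters and is not evidence that a factor binds.

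**Figure D1:**
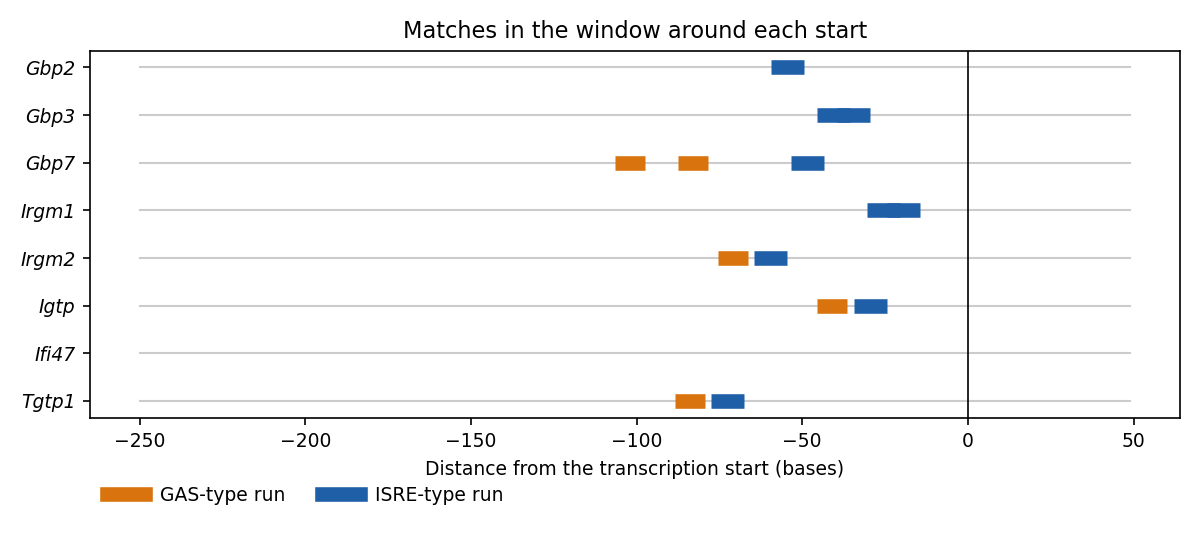
Position of ISRE-type (blue) and GAS-type (orange) runs in the window around the start of each of 8 GTPase genes. The x axis is the distance from the transcription start in bases, and each grey line is 1 gene. The ISRE-type runs of 7 genes lie between 77 and 15 bases before the start.

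Expression is given in the table as TPM, an RNA abundance per unit of transcript length whose sum is the same in every library, so levels can be compared between genes. Read depth is not kept in TPM and is unknown here, and no counting error can be given. The rGST libraries held 12390 to 12449 genes at 1 TPM or more, and the rSLURP1 libraries 11906 to 11981. The median of all 12301 tested genes was lower with rSLURP1 by 0.33 on the log2 scale, a shift that median-ratio scaling (dividing each library by the median ratio of its genes) removes. Of the mammary tumor cell markers, Krt18 and Vim were high in every library, whereas 5 of the 9 stayed under 1 TPM in every library, among them Cdh1 and, listed at 0, Epcam, Krt5 and Krt14. Their summed TPM was 1385 to 1539 with rGST and 841.0 to 896.8 with rSLURP1. Most of it was Vim, at 1184 to 1340 TPM with rGST and 640.3 to 698.5 with rSLURP1. Of 9 immune cell markers, 8 stayed under 1 TPM in every library. Their summed TPM was 3.61 to 4.12 with rGST and 7.85 to 10.67 with rSLURP1, nearly all of it Cd68, at 3.57 to 4.07 TPM with rGST and 7.75 to 10.58 with rSLURP1.

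The GTPase genes were lower with rSLURP1 as a group. Their TPM summed over the 10 genes was 187.0, 177.4 and 154.2 in the rGST libraries and 25.7, 30.5 and 27.0 in the rSLURP1 libraries, a 6.24-fold lower mean. The 4 GBP genes were 6.32-fold and the 6 IRG genes 6.18-fold lower in the sum. In 9 of the 10 genes every rSLURP1 library was below every rGST library, against 36.7% of the 23334 genes with any signal and 61.7% of the tested genes. With bulk RNA, fewer expressing cells and less RNA per cell cannot be told apart.

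**Figure D2:**
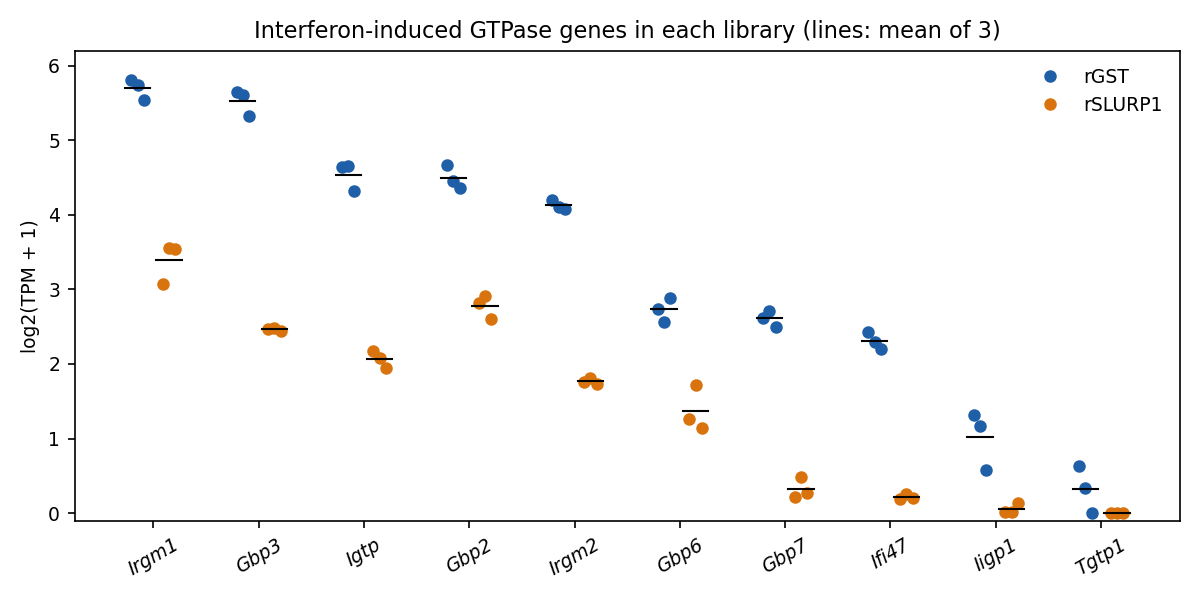
Expression of the 10 GTPase genes in each library, as log2(TPM + 1), ordered by the mean TPM with rGST. Points are libraries (3 rGST, blue; 3 rSLURP1, orange) and lines are means. The groups are separated in 9 genes and overlap in Tgtp1, which was listed at 0 in all rSLURP1 libraries and in 1 rGST library.

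Differences were tested with limma on log2(TPM + 1) over the 12301 genes that reached 1 TPM in 3 or more libraries, and p-values were adjusted over all of these by the Benjamini-Hochberg method. The standard error of a log2 fold change is given as SE. Of the 10 GTPase genes, 8 entered the test, and all 8 passed an adjusted p of 0.05 in the lower direction, as did 58.5% of all tested genes. None was higher, against 8.66% of all tested genes. All 8 fell at least 2-fold, against 7.06% of all tested genes. Gbp7 and Ifi47 passed the filter only through their rGST libraries, so a lower value was built into their selection. The 6 genes that reached 1 TPM in all 6 libraries were each lower in a fit restricted to genes that did so, as were 61.3% of all genes in that fit. With every gene above 0 in any library in the fit, 9 of the 10 genes were lower, against 29.5% of all genes, and Tgtp1 was not called (log2 fold change -0.32, SE 0.155, limma adjusted p = 0.187). With median-ratio scaling, the 8 tested genes were again all lower and all at least 2-fold lower, against 25.2% and 3.76% of all tested genes.

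The median log2 fold change of the 8 tested genes was -2.30, against -0.33 for all tested genes, and -2.02 with median-ratio scaling. All 8 were among the 500 largest decreases of the tested genes, and 2, Gbp3 and Igtp, were among the 100 largest. A log2 fold change on the TPM + 1 scale understates the change of genes with low TPM, so ratios of mean TPM are also given. The smallest two-sided p that exact permutation of 3 and 3 libraries allows is 0.1, and each of the 9 separated genes reached it.

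**Figure D3:**
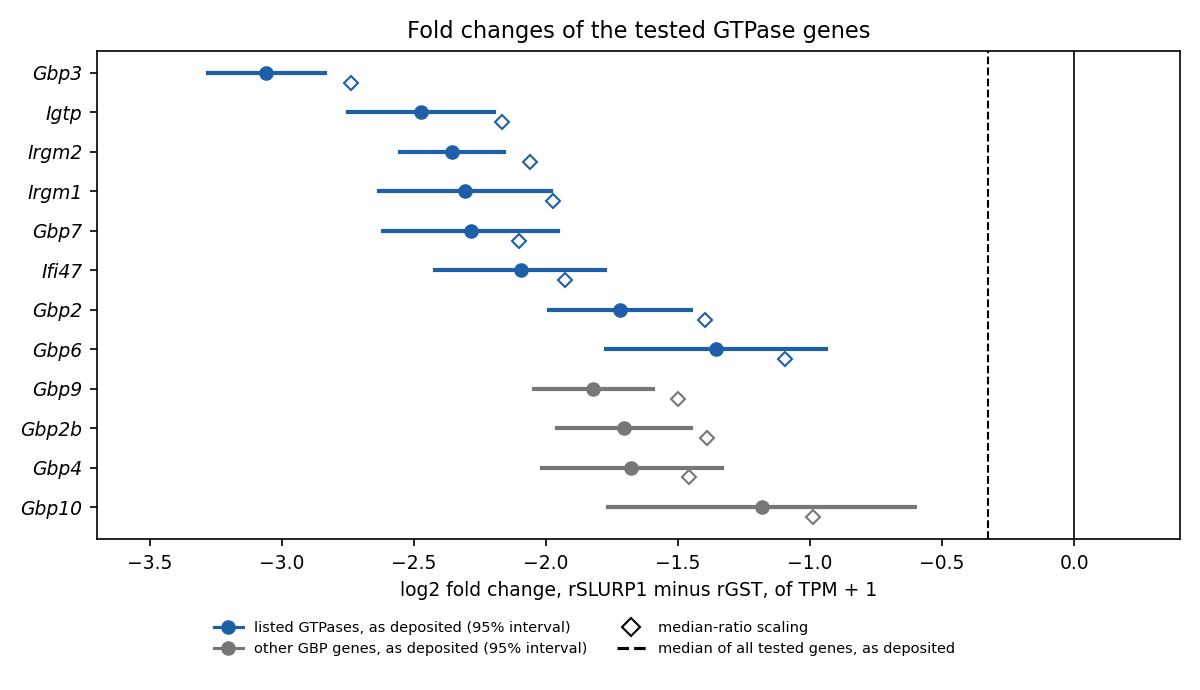
Log2 fold change (rSLURP1 minus rGST, on log2(TPM + 1)) of the 8 tested GTPase genes (blue) and of the 4 other GBP genes that entered the test (grey). Circles and bars are the estimate and its 95% interval from limma on the deposited values, and diamonds are the estimates with median-ratio scaling. All lie below the dashed median of all tested genes, at -0.33.

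Among the GBPs of chromosome 3, Gbp3 was at 49.1, 47.5 and 39.0 TPM with rGST and at 4.55, 4.59 and 4.44 with rSLURP1. The rSLURP1 libraries lay within a narrow band, and the mean was 9.99-fold lower (45.2 ± 5.42 against 4.53 ± 0.0777, SD, n = 3 each). Its log2 fold change of -3.06 (SE 0.095, limma adjusted p = 5.35e-07) was the largest decrease of the 8 genes on this scale, while with a pseudocount of 0.1 Ifi47 (-3.97) and Gbp7 (-3.92) lay below it (-3.29). Gbp2, which binds vacuole membranes through a lipid anchor, was at 24.5, 20.97 and 19.5 TPM with rGST and at 6.08, 6.50 and 5.05 with rSLURP1. The groups did not overlap, and the log2 fold change was -1.72 (SE 0.116, limma adjusted p = 1.52e-05). Gbp7, another member of this cluster, was at 5.16, 5.55 and 4.64 TPM with rGST and at 0.16, 0.40 and 0.21 with rSLURP1. Its rSLURP1 mean was 5.02% of its rGST mean, and its log2 fold change was -2.29 (SE 0.142, limma adjusted p = 1.10e-05). Of its 50-base runs, 12.7% also occur in another gene, mostly Gm43802.

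The order of Gbp2 and Gbp3 differed between the treatments. The ratio of Gbp2 to Gbp3 was 0.498, 0.441 and 0.500 in the rGST libraries and 1.34, 1.42 and 1.137 in the rSLURP1 libraries. Gbp3 was thus the higher gene in every rGST library and the lower one in every rSLURP1 library (exact permutation test, two-sided p = 0.1). Of the 28 pairs among the 8 tested genes, this was the only pair whose order changed in every library. In 22 of the pairs the ratios of the treatments did not overlap, and no pair could reach a p-value below 0.1. Pairs of other genes were not counted, so neither count is read as a trait of the GTPases.

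Gbp6, on chromosome 5, was at 5.65, 4.93 and 6.42 TPM with rGST and at 1.41, 2.30 and 1.20 with rSLURP1. Its log2 fold change was -1.36 (SE 0.178, limma adjusted p = 3.85e-04), the smallest decrease of the 8, and it was -1.10 with median-ratio scaling. Its value is uncertain because 70.7% of the 50-base runs in its annotated transcripts also occur in other genes, mostly in Gm43302. Gm43302, Gbp6 and Gbp10 together were at 26.6, 26.4 and 20.8 TPM with rGST and at 5.87, 7.34 and 5.73 with rSLURP1. The sum was 3.90-fold lower, with no overlap between the treatments.

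Among the IRG regulators, Irgm1 had the highest level of the 10 genes in both treatments. It was at 54.9, 52.5 and 45.6 TPM with rGST and at 7.41, 10.8 and 10.6 with rSLURP1. The groups were far apart, and the log2 fold change was -2.31 (SE 0.140, limma adjusted p = 9.85e-06). Igtp was at 23.9, 24.3 and 18.9 TPM with rGST and at 3.51, 3.23 and 2.84 with rSLURP1, a log2 fold change of -2.47 (SE 0.119, limma adjusted p = 3.67e-06). Irgm2 was at 17.4, 16.2 and 15.9 TPM with rGST and at 2.39, 2.51 and 2.33 with rSLURP1. It had the tightest replicates with rGST and a log2 fold change of -2.36 (SE 0.084, limma adjusted p = 9.58e-07). Of their 50-base runs, Igtp shared 11.8% with Irgm2 and Irgm2 shared 6.79% with Igtp. The summed TPM of Igtp and Irgm2 was 6.93-fold lower with rSLURP1. The ratio of Irgm2 to Igtp was 0.726, 0.665 and 0.841 with rGST and 0.681, 0.777 and 0.820 with rSLURP1, so these regulators kept ratios whose ranges overlapped (exact permutation test, two-sided p = 0.9). This p does not show that the ratios are equal.

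The effector IRGs were the genes with the lowest levels. Ifi47 was at 4.40, 3.92 and 3.59 TPM with rGST and at 0.14, 0.19 and 0.15 with rSLURP1. Its rSLURP1 mean was 4.03% of its rGST mean, and the log2 fold change was -2.10 (SE 0.138, limma adjusted p = 1.39e-05). Iigp1, on chromosome 18, was at 1.48, 1.25 and 0.49 TPM with rGST and at 0.01, 0.01 and 0.10 with rSLURP1. It reached a TPM of 1 in only 2 libraries and did not enter the test. In the fit of all genes above 0 its log2 fold change was -0.96 (SE 0.197, limma adjusted p = 0.0128). Tgtp1 was at 0.55, 0.26 and 0 TPM with rGST and was listed at 0 in all rSLURP1 libraries, so the groups overlapped at 0. It shares 79.4% of its 50-base runs with Tgtp2, and the sum of both genes was 0.92, 1.23 and 0.38 TPM with rGST and 0, 0.08 and 0.07 with rSLURP1. That sum did not overlap between the treatments.

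With rGST, the order of mean levels was Irgm1 (51.0 TPM), Gbp3 (45.2), Igtp (22.4), Gbp2 (21.7), Irgm2 (16.5), Gbp6 (5.67), Gbp7 (5.12), Ifi47 (3.97), Iigp1 (1.07) and Tgtp1 (0.27). The ranges of Irgm1 and Gbp3, Igtp and Gbp2, Gbp6 and Gbp7, and Iigp1 and Tgtp1 overlapped, and the other neighbors were apart. With rSLURP1 the order was Irgm1 (9.60 TPM), Gbp2 (5.88), Gbp3 (4.53), Igtp (3.19), Irgm2 (2.41), Gbp6 (1.64), Gbp7 (0.257), Ifi47 (0.16), Iigp1 (0.04) and Tgtp1 (0). There only Gbp7 and Ifi47 overlapped. Among the rGST libraries, replicate 3 was the lowest in 9 of the 10 genes, Gbp6 being the exception. Among the rSLURP1 libraries, replicate 2 was the highest in 7 of the 10.

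Other GTPase genes were also measured, mostly of the GBP and IRG families, to which Gvin1 and Gm4070 do not belong. Of 22 further names, 20 were found, and 6 of these reached a TPM of 1 in any library. In each of the 6 every rSLURP1 library was below every rGST library, against 36.7% of the genes with any signal. Gbp4, Gbp8, Gbp10 and Gm4070 reached 1 TPM in rGST libraries alone, so a lower value was built into their selection. Gbp9 was at 19.8, 23.4 and 18.7 TPM with rGST and at 5.17, 5.21 and 4.95 with rSLURP1 (log2 fold change -1.82, SE 0.097). Gbp2b, next to Gbp2, was at 17.7, 15.3 and 16.0 TPM with rGST and at 3.98, 3.97 and 5.07 with rSLURP1 (log2 fold change -1.70, SE 0.109). These were the family genes outside the 10 with the highest levels, and neither overlapped between the treatments. Gbp4 and Gbp10 also entered the test, with log2 fold changes of -1.68 and -1.18, and Gbp8 and Gm4070 reached a TPM of 1 in a single rGST library each. Gbp9 and Gbp2b, the tested genes at 1 TPM or more in all 6 libraries, passed the threshold and fell at least 2-fold. Gbp4 and Gbp10 did so as well, through the selection just named, and Gbp10 was at -0.99 with median-ratio scaling. Of the other 14, 12 were above 0 in some library, all under 1 TPM, and 9 of these had a lower mean with rSLURP1. The share of all genes under 1 TPM with a lower mean was not computed. Irgc1, Gvin1 and Gm12250 had a higher mean with rSLURP1, with overlapping libraries and no more than 0.81 TPM.

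In the pathway that induces the GTPases, the transcription factors Irf1 and Irf9 were lower by more than the receptors and kinases. Interferon-gamma itself (Ifng) was listed at 0 in all 6 libraries. Of the ligands Ifna1, Ifna2, Ifna4, Ifnl2, Ifnl3 and Ifnb1, only Ifnb1 was above 0, at 0.34 TPM in 1 rGST library. Of 15 pathway genes, 11 entered the test, and 10 were lower (58.5% of all tested genes) and none higher (8.66%). Their median log2 fold change was -0.70. With median-ratio scaling it was -0.36, and 7 of the 11 were lower (25.2% of all tested genes). Irf1 was at 113.6, 121.1 and 109.4 TPM with rGST and at 32.8, 31.6 and 34.7 with rSLURP1, a log2 fold change of -1.77 (SE 0.057, limma adjusted p = 5.89e-07). Every rSLURP1 library was below every rGST library for Irf1, and Irf9 had a log2 fold change of -1.60.

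The receptor chain Ifngr1 was at 26.5, 26.4 and 29.3 TPM with rGST and at 15.5, 17.0 and 17.0 with rSLURP1, a log2 fold change of -0.70 (limma adjusted p = 1.01e-04). Ifngr2, the other chain, had a log2 fold change of -0.29 (95% interval -0.58 to 0.0078, limma adjusted p = 0.0775), which became 0.046 under median-ratio scaling. The kinases Jak1 and Jak2 had log2 fold changes of -0.46 and -0.42, which with median-ratio scaling were -0.11 (limma adjusted p = 0.0742) and -0.069 (limma adjusted p = 0.225). The feedback inhibitors Socs1 and Socs3 had log2 fold changes of -0.85 and -0.82, and both stayed lower with median-ratio scaling (-0.54 and -0.47). Klf4, a transcription factor that the study places between interferon-gamma and Slurp1, had a log2 fold change of -0.90, and Slurp1 was listed at 0 in every library.

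Other genes that interferons induce were described beside the GTPases by their counts and medians. Of 32 antiviral genes better known from type I interferon, 31 entered the test, all 31 were lower (58.5% of all tested genes) and 29 at least 2-fold lower (7.06%), with a median log2 fold change of -2.24. Of these, 8 had at least 1 rSLURP1 library under 1 TPM and passed the filter through the rGST libraries, Ifit3 and Ifit3b among them. The 23 at 1 TPM or more in all 6 libraries were all lower (61.3% of all such genes), with a median of -2.05. With median-ratio scaling all 31 were lower and 26 at least 2-fold lower (25.2% and 3.76% of all tested genes). As deposited, the values ranged from -5.12 in Ifit3 to -0.89 in Trim25. Rtp4, Oasl2, Irf7, Parp14 and Ifit3b had -2.90, -3.61, -2.66, -2.48 and -3.79. Of 17 genes of MHC class I presentation, all 17 were lower and 10 at least 2-fold lower (58.5% and 7.06% of all tested genes). Their median was -1.11. Psmb9 passed the filter only through its rGST libraries. The 16 at 1 TPM or more in all 6 libraries were all lower (61.3% of all such genes), with a median of -1.15. Of these 16, 9 were at least 2-fold lower (665 of all 11199 such genes). With median-ratio scaling 15 of the 17 were lower and 5 at least 2-fold lower (25.2% and 3.76% of all tested genes). The immunoproteasome subunit Psmb8 and the peptide transporter genes Tap1 and Tap2 were at -2.87, -2.43 and -1.95, within the range of the GTPases, and H2-T23, H2-Q4, Tapbp and H2-D1 were at -1.76, -1.24, -1.11 and -0.98. Of 10 secreted and surface proteins, 5 entered the test and were lower (58.5% of all tested genes), with a median of -0.81. Cxcl10 was at -1.39, Lgals3bp at -1.03 and Cd274 (PD-L1) at -0.81. Il18bp passed the filter only through its rGST libraries, and the 4 at 1 TPM or more in all 6 libraries were lower (61.3% of all such genes). With median-ratio scaling 3 of the 5 were lower (25.2% of all tested genes), and Ccl5 and Il18bp were not called. Cxcl9, which interferon-gamma induces in many cells, was at 0.02 TPM in 1 rSLURP1 library and 0 in the others, and Ido1 was at 0 in all. With median-ratio scaling the medians were -2.002 for the antiviral genes, -0.83 for MHC class I, -0.47 for the secreted and surface proteins and -0.099 for the ATG8 conjugation genes described next. The ATG8 conjugation genes, whose products guide IRGs and GBPs to vacuoles, had a median of -0.36 over 11 genes, near that of all tested genes. Of these 9 were lower (58.5% of all tested genes), such as Map1lc3a (-0.71) and Atg12 (-0.51), and Atg5 (0.13) and Gabarap (-0.089) were not called. With median-ratio scaling 4 were lower (25.2% of all tested genes). The 2 genes Atg5 (0.46) and Gabarap (0.26) were then higher, as were 3198 of all 12301 tested genes. Whether these lists differ from the GTPases was not tested.

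**Figure D4:**
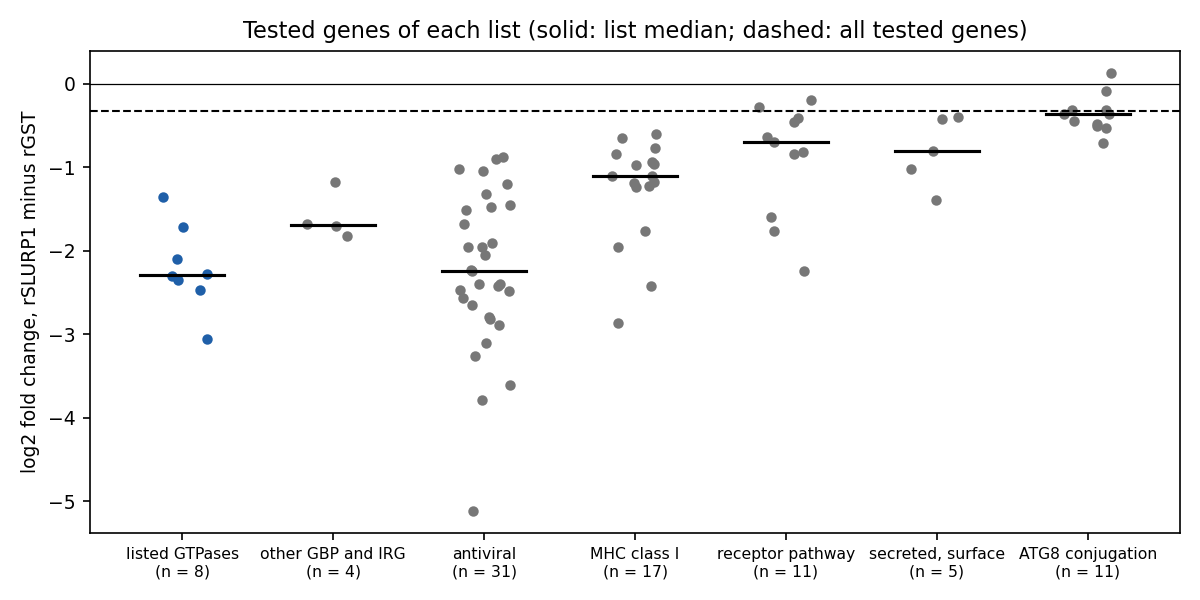
Log2 fold change (rSLURP1 minus rGST, on log2(TPM + 1)) of every tested gene of the lists named on the x axis. Points are genes, solid lines are list medians, and the dashed line is the median of all tested genes (-0.33). Of the lists shown, the GTPases (median -2.30) and the antiviral genes (-2.24) lie lowest. The ATG8 conjugation genes (-0.36) lie near the dashed line. The marker lists are not shown, and the tested fibroblast and endothelial genes had a lower median (-2.88).

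Genes of fibroblast type also moved with the treatment. The summed TPM of Dcn, Lum, Col1a1, Col1a2, Pdgfra, Pdgfrb and the endothelial genes Pecam1 and Cdh5 was 1007 to 1138 with rGST and 75.5 to 85.1 with rSLURP1. In 6 of the 8 genes every rSLURP1 library was below every rGST library, against 36.7% of the genes with any signal. Col1a2, which is among these 6, stayed under 1 TPM in every library, as did Pecam1 and Cdh5. Of the tumor cell markers, Vim (log2 fold change -0.92) and Krt8 (-0.60) were lower, Krt8 having passed the filter only through its rGST libraries. Krt18 was at 195.6 TPM with rGST and 197.7 with rSLURP1 in the mean. With median-ratio scaling Vim stayed lower (-0.57) and Krt8 was not called (-0.41, limma adjusted p = 0.0554). Krt18 was higher with that scaling (0.37, limma adjusted p = 1.07e-04). Of the immune cell markers, Cd68 was higher (1.142 on the log2 scale), and Ptprc, the marker of all leukocytes, did not exceed 0.01 TPM. Whether any of these genes had a part in the decrease of the GTPases was not tested.

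The 5 tested genes outside the lists whose profile over the 6 libraries was closest to the median profile of the GTPases were Cdon, Wnt9a, Synpo, Htra1 and Lrrk1. Likeness was the root-mean-square difference of log2(TPM + 1), taken relative to the rGST mean, and was 0.0607 for Cdon and 0.0802 for Lrrk1. Among the GTPases themselves it ran from 0.064 in Gbp7 to 0.662 in Gbp6. Cdon was at 53.8, 51.8 and 49.5 TPM with rGST and at 8.84, 10.2 and 9.82 with rSLURP1.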

How the data were processed

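RNAseq of D2A1 spheroids was analysed in 6 libraries, grouped by the sample labels. Per the labels, the authors used cutadapt 1.18, STAR 2.5.2b and RSEM 1.3.3 with mm10, and they deposited TPM, 1 column per library with no pooling; the methods name GENCODE M12. Positions came from GENCODE M21 (GRCm38).

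From the TPM, log2(TPM + 1) was tested with limma 3.58.1 (R 4.3.3; lmFit, eBayes with trend) without a block, keeping genes that reached 1 TPM in 3 or more libraries. The threshold was an adjusted p of 0.05, with a 2-fold change where stated. The script was tested on simulated data. Shared 50-base runs were counted in GENCODE M21 transcripts. Tables and figures used Python 3.11.15, pandas 2.3.3, scipy 1.17.1 and matplotlib 3.10.9.

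The genes and lists were chosen with earlier results of these data known. All 10 GTPases are named, with the other GTPase genes at a TPM of 1 in any library. Also named are up to 6 genes per further list by adjusted p, set pathway genes, and 5 genes by likeness. Tap1, Psmb9, Trim25, Ccl5, Il18bp, Atg5, Gabarap and the genes of the marker lists, the interferon ligands and those listed at or near 0 were named after their values were seen. Alternatives were other pseudocounts, filters, scalings and variance models, a loess adjustment for length and GC content, the replicate number as a block, and each library left out. A filter on the mean TPM was added after the data were seen. One gene of the pathway list is not reported here by name.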

Additional observations from a re-analysis of the deposited data

How the results depend on the processing

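All 8 tested GTPase genes kept their direction and their side of the threshold in each of the 134 values computed under the alternatives, with a largest adjusted p of 0.0145 in limma. The number at least 2-fold lower fell to 7 under quantile normalization and under the loess adjustment for length and GC content, where Gbp6 was at -0.97. The median log2 fold change of the GTPases, -2.30, was -2.75 with a pseudocount of 0.1, -2.19 with no filter, -2.02 under median-ratio scaling, -1.93 under quantile normalization and -1.91 under the loess adjustment, whether or not the replicate block was added. With each library left out in turn it ranged from -2.37 to -2.19. With the replicate number as a block it was -2.30 and all 8 genes were lower; the deviations of same-numbered libraries had correlations of -0.0556, -0.034 and -0.0607, so the numbers were not treated as pairs.

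Over all genes, 7200 were lower and 1065 higher as deposited, and 869 fell at least 2-fold. With median-ratio scaling these were 3094, 3198 and 463, under quantile normalization 2905, 3111 and 416, under the loess adjustment 2690, 3320 and 412, and under that adjustment plus the block 2468, 3095 and 413. These settings move the median of all genes from -0.33 to between -0.0012 and 0.030. Ifngr2 reversed to 0.046, 0.11 and 0.12 under these scalings in the same order (the last with and without the block), and its adjusted p was 0.0456 with the block alone. The median of the type I receptor genes reversed to 0.055 under the loess adjustment, also with the block. Read depth is unknown, so the precision of Iigp1, Tgtp1 and other genes under 1 TPM could not be assessed.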
